A study of Mus musculus with 14 samples.

Results

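Glucocorticoid signalling was followed through 9 genes in mouse pups whose eyes had been injected with carbenoxolone or saline. The tissue was the superior colliculus, the roof of the midbrain, where retinal axons end. The 9 genes were taken by their symbols from 55359 gene IDs and comprise the steroid-activating enzyme Hsd11b1 and its partner H6pd, the receptors Nr3c1 and Nr3c2, and the response genes Fkbp5, Tsc22d3, Sgk1, Zbtb16 and Pdk4. They were chosen because carbenoxolone, best known in this setting as a blocker of gap junctions, also inhibits 11-beta-hydroxysteroid dehydrogenase. They were selected on this role and with the measured differences in read counts between carbenoxolone and saline in view. Those differences between carbenoxolone and saline are therefore given as values with standard errors, without a test. All 9 genes had enough reads to enter the fit, which held 20330 genes.

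The animals were ICR (CD-1) mice of postnatal day 6, with no genetic change named in the labels, that had received 0.3 to 0.5 µL into the eye between postnatal days 0 and 1. The injection held saline or carbenoxolone (cbx) at 50 mM. Poly-A RNA of the superficial and of the deep layers was sequenced in bulk, and each library pooled the tissue of 3 brains. There were 3 libraries of saline superficial, 3 of saline deep, 4 of cbx superficial and 4 of cbx deep tissue, 14 in all. The agent was given at the eye while the RNA came from the brain, and the labels give no measure of corticosterone or of how much cbx reached the colliculus.

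Hsd11b1 makes active corticosterone from inert 11-dehydrocorticosterone inside the endoplasmic reticulum, using NADPH that H6pd supplies there, and Hsd11b2 runs the reverse step. Corticosterone binds the mineralocorticoid receptor (Nr3c2) with high and the glucocorticoid receptor (Nr3c1) with lower affinity. The bound receptors enter the nucleus, attach to response elements in DNA and raise genes such as Fkbp5, whose product in turn damps the receptor. In newborn rodents circulating corticosterone is low and the adrenal responds weakly to stress.

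RefSeq start-site windows (GRCm38.p6, from 250 bases before to 50 after a start) were matched for 7 of the 9 genes, in 14 windows; Nr3c1 and Zbtb16 had no entry. The bases before 1 start of Sgk1 and of Pdk4 are shown. Among the response genes, Sgk1 lay nearest to saline in the deep layer after cbx and Pdk4 farthest below it. The Sgk1 window shown is the only window of that gene that held the full palindrome described next. The contrast between its motifs and those of Pdk4 therefore rests on a selected window, and nothing is read from it. The search covered the full glucocorticoid palindrome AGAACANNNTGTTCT and its half-site AGAACA on both strands, and every full palindrome also holds the half-site. Capitals mark the half-site on either strand and, in Sgk1, the full palindrome. Sgk1 lies on the plus strand, chr10:21993640-21993889, and Pdk4 on the minus strand, chr6:5496310-5496528, with 31 exonic bases next to its start left out.
Sgk1: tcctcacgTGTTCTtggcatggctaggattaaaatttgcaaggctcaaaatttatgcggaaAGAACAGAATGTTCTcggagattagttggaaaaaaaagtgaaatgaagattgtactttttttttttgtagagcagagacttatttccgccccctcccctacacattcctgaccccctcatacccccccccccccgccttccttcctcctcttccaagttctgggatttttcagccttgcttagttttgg
Pdk4: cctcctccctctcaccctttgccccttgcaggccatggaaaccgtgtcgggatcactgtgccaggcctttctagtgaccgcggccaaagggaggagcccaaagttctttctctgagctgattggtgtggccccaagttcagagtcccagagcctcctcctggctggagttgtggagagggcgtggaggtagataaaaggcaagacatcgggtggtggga
Of 32851 windows of the same length, 3 held the full palindrome (0.00913%) and 19% held a half-site. One of the 6 Sgk1 windows was among the 3, with the palindrome 189 bases before the start, and the only Pdk4 window held neither motif. These are matches of letters and say nothing about whether a receptor was bound.

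Library totals ran from 32004952 to 48776827 counts. Levels are in CPM, counts scaled to a common library size, with TMM factors, which even out library composition. Differences are on the log2 scale from edgeR's quasi-likelihood fit over all 14 libraries, and a gene passed where its Benjamini-Hochberg adjusted p was below 0.05. The labels do not say whether libraries that share a number came from the same brains. The p-values measure how far pools of brains varied, not single pups. In bulk tissue, fewer cells of a type and less RNA per cell cannot be told apart. Tectal neuron markers such as Pax7, Tal1, Gata3 and Pou4f1 were detected. Of 7 hindbrain and cerebellar markers, Gabra6, Atoh1 and Hoxa3 had no counts in any library, and Hoxb2, Hoxb3 and Hoxb4 reached at most 0.258 CPM. The last of the list, Barhl1, stood at 41.3 to 143 CPM and was higher in the superficial layer. The 2 libraries of saline pool 1 held 0.572 to 1.94 CPM of Xist against 187 to 1130 CPM elsewhere, and those of cbx pool 4 held no Ddx3y, so these pools differed from the others in sex. One library, cbx superficial 1, had low counts of long transcripts, with a slope of -0.119 log2 units per doubling of transcript length, where the other 13 lay between -0.0389 and 0.066.

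Per kb of exon, Tsc22d3 was the most abundant of the 9, with a mean of 9.89 CPM per kb over the 14 libraries. Sgk1 followed at 7.71, Nr3c1 at 6.65, Pdk4 at 5.11 and Fkbp5 at 4.94 CPM per kb. The ranges over libraries of these 5 overlapped their neighbours in the order, that of Pdk4 being the widest at 1.57 to 9.27 CPM per kb. H6pd at 2.19, Nr3c2 at 1.78 and Hsd11b1 at 1.72 CPM per kb formed a lower step whose ranges also overlapped. Zbtb16, a zinc-finger repressor that responds to glucocorticoids, was lowest at 0.718 CPM per kb, and its 48 to 215 reads per library set the precision of its values.

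**Figure D1:**
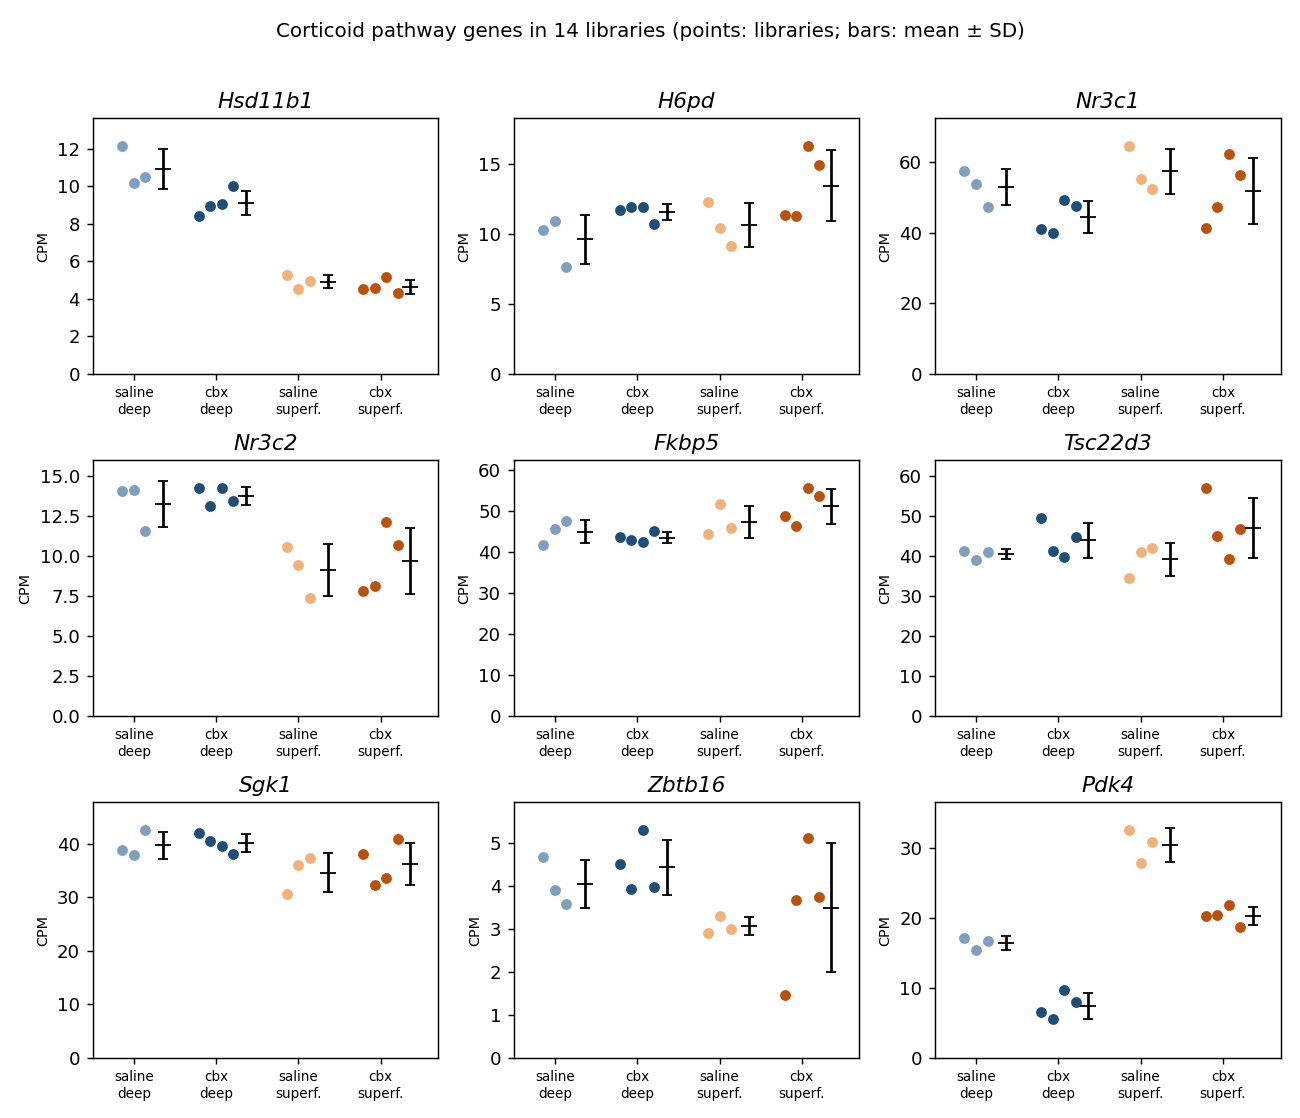
Levels of the 9 genes in CPM (vertical axes, from 0) in the 4 groups; each point is 1 library and the bars beside them are the group mean and SD. Pdk4 and Hsd11b1 separate the layers without overlap, and Pdk4 also separates cbx from saline within each layer.

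Pups given cbx were compared with pups given saline in a study of how the retina separates visual from somatosensory circuits around birth. Pdk4 was lower after cbx in both layers. The count of the 9 genes past the threshold was 1 in the superficial layer, where 4.33% of all genes were, and 1 in the deep layer, where 1.83% were. It was Pdk4 each time, and since the choice of genes had these differences in view, nothing is read from that count. In the superficial layer the count was 0 without the pools saline 1 and cbx 4. It was also 0 there without saline superficial 1 and without saline superficial 3. The enzymes, the receptors and the other 4 response genes lay between -0.26 and 0.34 log2 units from saline. Of those 4 response genes, Fkbp5 and Tsc22d3 were above saline in the superficial layer. Sgk1 and Zbtb16 had values above 0 there that turned below it under an alternative, Sgk1 to -0.080 without the pools saline 1 and cbx 4 and to -0.017 without saline superficial 1, and Zbtb16 to -0.050 without cbx superficial 3. The median of the 9 differences was 0.09 in the superficial and 0.01 in the deep layer, beside 0.0094 and 0.0069 over all genes tested.

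Pdk4 codes for a mitochondrial kinase that switches off pyruvate dehydrogenase and so spares glucose, and it is induced by glucocorticoids, fasting and fatty acids. In deep libraries it stood at 17.2, 15.3 and 16.7 CPM after saline and at 6.47, 5.51, 9.68 and 7.90 CPM after cbx. In superficial libraries it stood at 32.6, 27.8 and 30.8 CPM after saline and at 20.3, 20.4, 21.8 and 18.7 CPM after cbx. Every cbx library was below every saline library of its layer. The log2 difference was -1.15 (SE 0.13) in the deep layer, 0.45 times the saline level, and -0.58 (SE 0.13) in the superficial layer, 0.67 times the saline level. Over 15 alternatives the value ran from -1.31 to -1.04 in the deep and from -0.64 to -0.49 in the superficial layer, below 0 in each.

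On the log2 scale the Pdk4 difference was larger in the deep than in the superficial layer, by 0.57 log2 units (SE 0.19). Mean CPM went from 16.4 to 7.39 in the deep and from 30.4 to 20.3 in the superficial layer, so that order holds for ratios and not for CPM. Over all genes, 0% passed the edgeR test of a difference between layers, while 1699 had an unadjusted p below 0.05, DESeq2 called 60 and a fit with the pool as a block called 61. The other 8 genes had values of 0.03 for Nr3c2 to 0.19 for Hsd11b1 in that contrast, and 50.4% of all genes were above 0. The values of H6pd, Nr3c2, Sgk1 and Zbtb16 fell below 0 under some alternatives, to -0.034, -0.098, -0.097 and -0.18.

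Fkbp5, the co-chaperone that lowers the receptor's affinity for hormone, stood at 44.3, 51.6 and 45.8 CPM in saline superficial and at 48.8, 46.3, 55.6 and 53.6 CPM in cbx superficial libraries. Its deep values were 41.8, 45.5 and 47.4 CPM after saline and 43.6, 42.8, 42.3 and 45.1 CPM after cbx. The groups overlapped in both layers. Its log2 difference was 0.11 (SE 0.08) in the superficial layer and -0.05 (SE 0.08) in the deep layer, with 95% intervals of -0.06 to 0.28 and -0.22 to 0.13.

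Tsc22d3, which codes for the anti-inflammatory protein GILZ, stood at 34.4, 40.9 and 42.0 CPM in saline superficial and at 57.0, 44.9, 39.2 and 46.6 CPM in cbx superficial libraries. The highest of these, cbx superficial 1, is the library with the low counts of long transcripts. The log2 difference of Tsc22d3 was 0.26 (SE 0.11) with that library and 0.16 (SE 0.09) without it. In the deep layer the difference was 0.12 (SE 0.11), with saline libraries at 38.9 to 41.1 CPM and cbx libraries at 39.8 to 49.4 CPM. The groups overlapped in both layers.

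Sgk1, a kinase that raises sodium transport and is induced quickly by both receptors, was the flattest response gene. It stood at 38.8, 37.9 and 42.7 CPM in saline deep and at 42.2, 40.6, 39.6 and 38.2 CPM in cbx deep libraries. The difference was 0.01 (SE 0.09) in the deep and 0.06 (SE 0.09) in the superficial layer, and over the alternatives the deep value ran from -0.023, without saline deep 2, to 0.064. With 95% intervals of -0.19 to 0.21 and -0.13 to 0.26, changes within those bounds were not detectable here.

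Zbtb16 stood at 2.91 to 3.30 CPM in the 3 saline superficial libraries and at 1.46, 3.67, 5.12 and 3.73 CPM in the cbx superficial ones. The low value was again that of cbx superficial 1. The log2 difference was 0.19 (SE 0.27) with it and 0.44 (SE 0.18) without it, and the deep difference was 0.13 (SE 0.26).

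**Figure D2:**
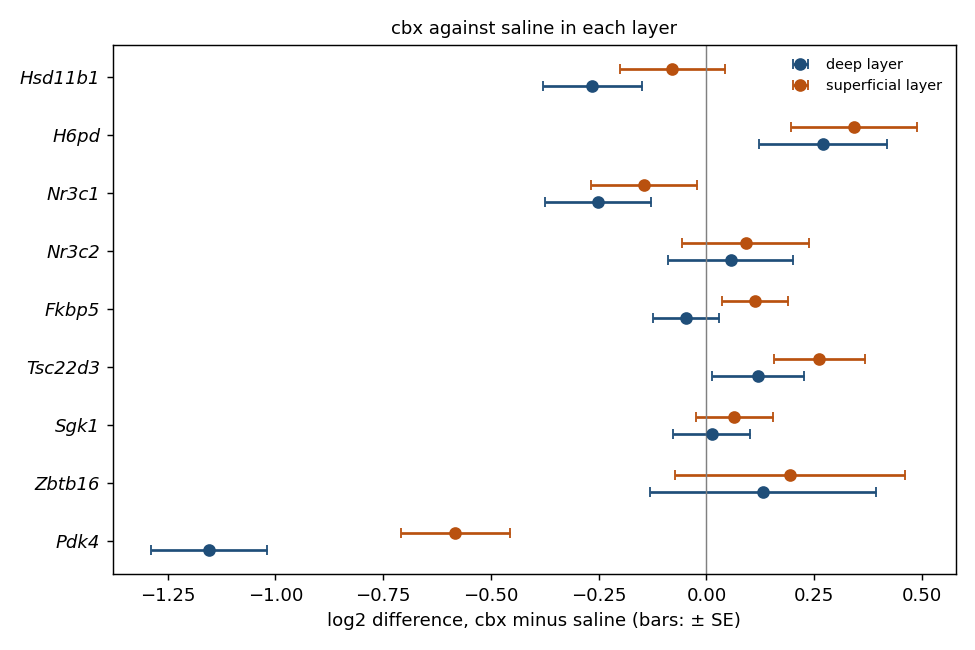
Log2 difference between cbx and saline (horizontal axis) for the 9 genes in the deep (blue) and superficial (orange) layer; points are fitted values and bars are 1 SE to either side. Pdk4 lies at -1.15 and -0.58, and the other 8 genes lie between -0.26 and 0.34.

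Hsd11b1, the 11-beta-hydroxysteroid dehydrogenase among the 9 genes, was somewhat lower after cbx in the deep layer. It stood at 12.1, 10.2 and 10.5 CPM in saline deep and at 8.42, 8.93, 9.04 and 9.99 CPM in cbx deep libraries, without overlap. The log2 difference was -0.26 (SE 0.11). Hsd11b1 and Pdk4 were the 2 of 9 genes without overlap in the deep layer, where 16.0% of all genes had none, and Pdk4 the 1 of 9 in the superficial layer, where 17.3% had none. In the superficial layer Hsd11b1 stood at 5.25, 4.54 and 4.92 CPM after saline and at 4.52, 4.55, 5.17 and 4.32 CPM after cbx. The groups overlapped there, with a difference of -0.08 (SE 0.12), which was 0.0050 without the pools saline 1 and cbx 4 and -0.20 (SE 0.13) once each library's trends with transcript length and GC content were removed.

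Some marker lists of other cells had lower sums after cbx in the deep layer as well, where 1.83% of all genes passed. The 10 meningeal fibroblast markers summed to 79.9 to 94.4 CPM in saline deep and 51.6 to 69.1 CPM in cbx deep libraries, with 0 of 10 past the edgeR threshold (4 at an unadjusted p below 0.05, 1 called by DESeq2 and 0 by voom), 9 below saline and none without counts. The 5 pericyte markers summed to 166 to 168.5 CPM against 128 to 163 CPM, with 0 of 5 past it (1 unadjusted, 1 by DESeq2, 0 by voom). The 8 astrocyte markers summed to 2195 to 2685 CPM against 1878 to 2173 CPM, with Sox9 lower among 8. These 3 lists were chosen from more. Elsewhere 7 of 10 oligodendrocyte lineage, 3 of 5 choroid plexus and 3 of 6 red blood cell markers lay above saline. Of the 8 neuron markers and of the 8 microglia and macrophage markers 3 did, and of the 8 endothelial markers 1 did. Hsd11b1 and Pdk4 were lower in these same libraries, and the part of these cells in their differences was not tested.

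H6pd, which makes the NADPH that Hsd11b1 uses, was higher after cbx by 0.34 (SE 0.15) in the superficial and by 0.27 (SE 0.15) in the deep layer. It stood at 12.3, 10.4 and 9.16 CPM in saline superficial and at 11.3, 11.3, 16.3 and 14.9 CPM in cbx superficial libraries. The deep libraries held 10.3, 10.9 and 7.63 CPM after saline and 11.7, 11.9, 11.9 and 10.7 CPM after cbx. The groups overlapped in both layers, and the 2 enzymes of the NADPH couple thus had values on opposite sides of 0.

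Nr3c1 stood at 57.5, 53.7 and 47.4 CPM in saline deep and at 40.9, 40.0, 49.2 and 47.5 CPM in cbx deep libraries. In superficial libraries it stood at 64.6, 55.1 and 52.4 CPM after saline and at 41.2, 47.3, 62.4 and 56.4 CPM after cbx. The receptor's groups overlapped in both layers, with differences of -0.25 (SE 0.12) in the deep and -0.14 (SE 0.12) in the superficial layer. The superficial value was -0.05 (SE 0.11) without cbx superficial 1. Nr3c2 was nearly level, at 0.06 (SE 0.14) in the deep and 0.09 (SE 0.15) in the superficial layer, and the latter was 0.18 (SE 0.14) without cbx superficial 1, -0.042 without saline superficial 3 and -0.037 without cbx superficial 3. The deep value was -0.033 without saline deep 3. Its exons overlap those of the gene Gm10649 in the GENCODE M21 annotation, so reads of both genes may be mixed.

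The layers were compared within each treatment, with a test. These comparisons use the same libraries as the differences between cbx and saline that were in view when the genes were chosen. Their p-values are therefore not wholly free of that choice. After saline 3 of the 9 genes passed, Hsd11b1 and Nr3c2 being lower and Pdk4 higher in the superficial layer, and 18.4% of all genes passed. After cbx 4 of 9 passed, the same 3 in the same directions with Fkbp5 higher in the superficial layer, and 32.2% of all genes passed.

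Hsd11b1 differed most among the genes lower in the superficial layer. Its saline superficial libraries held 4.91 CPM (SD 0.36, n = 3) and its saline deep libraries 10.9 CPM (SD 1.07, n = 3). The log2 difference was -1.15 (SE 0.13, edgeR adjusted p = 1.63e-06) after saline. After cbx it was -0.97 (SE 0.11, edgeR adjusted p = 1.17e-06), from 4.64 CPM (SD 0.37, n = 4) and 9.09 CPM (SD 0.65, n = 4). The enzyme was thus at about 0.45 and 0.51 times its deep level, and the call held under every alternative run for both treatments. Hsd11b2, which inactivates corticosterone, was scarce at 0.82 to 2.07 CPM. It did not pass in either treatment (-0.72, SE 0.30, edgeR adjusted p = 0.11 after saline, and -0.44, SE 0.26, edgeR adjusted p = 0.207 after cbx).

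The receptors differed from each other in their layer pattern. Nr3c2 stood at 14.1, 14.1 and 11.6 CPM in saline deep and at 10.6, 9.42 and 7.35 CPM in saline superficial libraries, without overlap. The difference was -0.54 (SE 0.16, edgeR adjusted p = 0.0195). It did not pass without saline deep 1, saline deep 2, saline superficial 2 or saline superficial 3, with edgeR adjusted p of 0.0741, 0.0799, 0.0507 and 0.108, nor without the pools saline 1 and cbx 4, at 0.0682. After cbx Nr3c2 stood at 14.3, 13.2, 14.3 and 13.4 CPM in deep and at 7.81, 8.14, 12.1 and 10.7 CPM in superficial libraries, again without overlap. That difference was -0.51 (SE 0.14, edgeR adjusted p = 0.00688) and passed under every alternative run.

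Nr3c1 did not pass in the layer comparison, at 0.12 (SE 0.13, edgeR adjusted p = 0.621) after saline and 0.23 (SE 0.11, edgeR adjusted p = 0.149) after cbx. With the pool as a block the cbx value was 0.21 and passed (edgeR adjusted p = 0.00982). It also passed without cbx superficial 1 (edgeR adjusted p = 0.0209) and with the length and GC trends removed (edgeR adjusted p = 0.0402). The ratio of Nr3c1 to Nr3c2, both per kb, was 3.36 (SD 0.14, n = 3) in saline deep and 5.36 (SD 0.57, n = 3) in saline superficial libraries. It was 2.72 (SD 0.27, n = 4) in cbx deep and 4.54 (SD 0.25, n = 4) in cbx superficial libraries. The superficial ratios lay above the deep ratios in both treatments without overlap, at 4.93 to 6.01 against 3.21 to 3.44 after saline and 4.34 to 4.90 against 2.42 to 2.98 after cbx.

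Pdk4 was the gene with the largest layer difference of the 9 after cbx, and it was higher in the superficial layer. It stood at 30.4 CPM (SD 2.40, n = 3) against 16.4 CPM (SD 0.94, n = 3) after saline and at 20.3 CPM (SD 1.29, n = 4) against 7.39 CPM (SD 1.81, n = 4) after cbx. The log2 differences were 0.89 (SE 0.14, edgeR adjusted p = 9.35e-05) and 1.46 (SE 0.13, edgeR adjusted p = 2.85e-08). Both calls held under every alternative run. The 2 differences share no library, and their gap is the 0.57 given above. The value after cbx is thus not separate from the differences between cbx and saline that were in view.

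Among the other response genes, Fkbp5 alone passed between layers in the edgeR fit, and only after cbx. Fkbp5 was 0.23 higher in the superficial layer after cbx (SE 0.07, edgeR adjusted p = 0.0167). It did not pass without cbx deep 2 (edgeR adjusted p = 0.0834), without cbx superficial 3 (0.0615), without the pools saline 1 and cbx 4 (0.0602), without the low-count filter (0.0579) or with the length and GC trends removed (0.076). After saline its value was 0.07 (SE 0.08, edgeR adjusted p = 0.625). Sgk1 had values of -0.20 (SE 0.10, edgeR adjusted p = 0.17) after saline and -0.15 (SE 0.08, edgeR adjusted p = 0.188) after cbx, and passed only with the length and GC trends removed, at -0.28 and -0.26 (edgeR adjusted p = 0.0261 and 0.0106). Zbtb16 had values of -0.40 (SE 0.28, edgeR adjusted p = 0.397) and -0.33 (SE 0.24, edgeR adjusted p = 0.32). Tsc22d3 had -0.04 (SE 0.11, edgeR adjusted p = 0.851) and 0.10 (SE 0.10, edgeR adjusted p = 0.486), and H6pd 0.15 (SE 0.16, edgeR adjusted p = 0.601) and 0.22 (SE 0.13, edgeR adjusted p = 0.229). Libraries of the 2 layers did not overlap for 5 of 9 genes after saline, Sgk1 and Zbtb16 among them, where 36.7% of all genes had no overlap, and for 4 of 9 after cbx, where 29.6% had none.

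**Figure D3:**
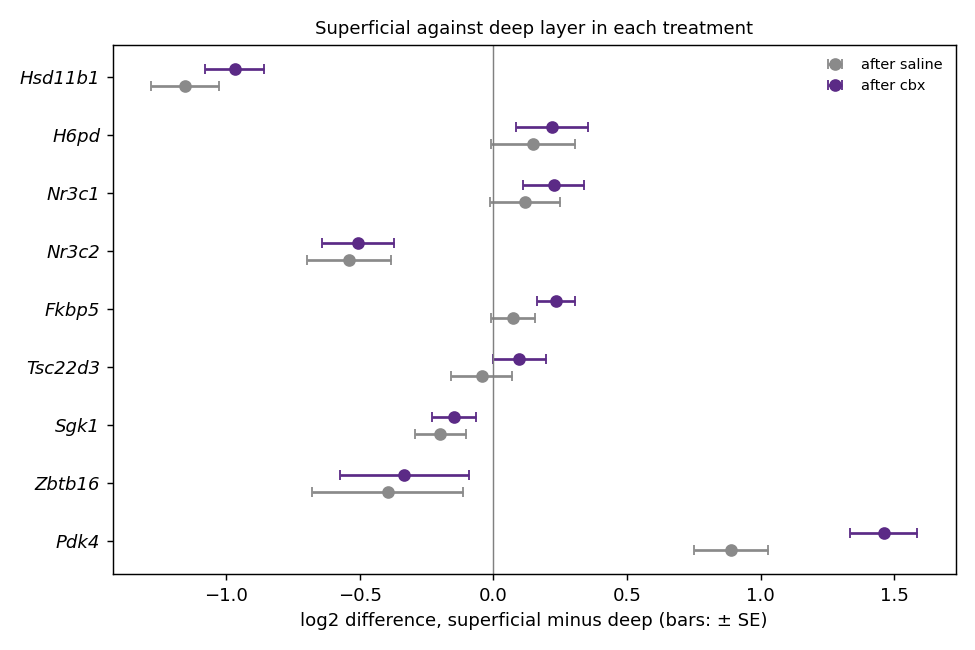
Log2 difference between the superficial and the deep layer (horizontal axis) for the 9 genes after saline (grey) and after cbx (purple); points are fitted values and bars are 1 SE to either side. Hsd11b1 lies at -1.15 and -0.97 and Pdk4 at 0.89 and 1.46, with the other genes between.

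Other cell types also differed between the layers. All 10 meningeal fibroblast markers were higher in the superficial layer in both treatments, summing to 680 to 1019 CPM against 79.9 to 94.4 CPM after saline and to 897 to 1735 CPM against 51.6 to 69.1 CPM after cbx. Of 8 endothelial markers 5 were higher and 1 lower in both treatments, with sums of 385 to 400 CPM in saline superficial and 225 to 249 CPM in saline deep libraries. Of 10 oligodendrocyte lineage markers 6 were lower and 1 higher after saline and 8 were lower after cbx, with sums of 662 to 939 CPM in saline superficial and 1077 to 1332 CPM in saline deep libraries. Over all genes 18.4% passed after saline and 32.2% after cbx. No marker of these 3 lists was without counts throughout a group. The part of these cells in the layer differences of Hsd11b1, Nr3c2, Fkbp5 and Pdk4 was not tested.

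Within groups, the spread of several of the 9 genes followed the libraries' trend with transcript length. With each group's mean removed, Zbtb16 had a Pearson r of 0.84 with the length slope over the 14 libraries, Nr3c1 0.824, Nr3c2 0.798 and H6pd 0.773. Tsc22d3 ran the other way at -0.827. Pdk4 and Hsd11b1, the genes with the clearest differences between groups, had 0.0934 and 0.205. These are descriptions of libraries that share pools and group means, and each slope was itself measured across the genes of that library.

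The genes were also compared with each other in their spread within groups, with the length trend left in. The closest pair was H6pd and Nr3c2, with r = 0.932 over the 14 libraries once group means were removed, and the farthest was Nr3c1 and Tsc22d3 at -0.747. Among the 5 response genes the 10 pairs had a median r of -0.126, and 4 of 10 were above 0. They ran from -0.697 for Tsc22d3 and Zbtb16 to 0.61 for Tsc22d3 and Sgk1. Tsc22d3 and Zbtb16 followed the length trend in opposite directions, and the part of that trend in these values was not tested. By the same measure among 15143 genes, the nearest to Pdk4 were Napepld (0.882), Laptm5 (0.87) and Zfp36l1 (0.854), and the nearest to Hsd11b1 were P3h2 (0.873), Tgfa (0.855) and A330084C13Rik (0.85). Those nearest to Nr3c1 were Ski (0.97), Pdgfra (0.969) and Abca1 (0.968), and to Fkbp5 Ccdc149 (0.905), Cox7a1 (0.897) and Xylb (0.883). Each trio holds the highest of 15143 correlations over only 14 libraries. Some values this high can arise by chance in such a search, and none was tested.

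**Figure D4:**
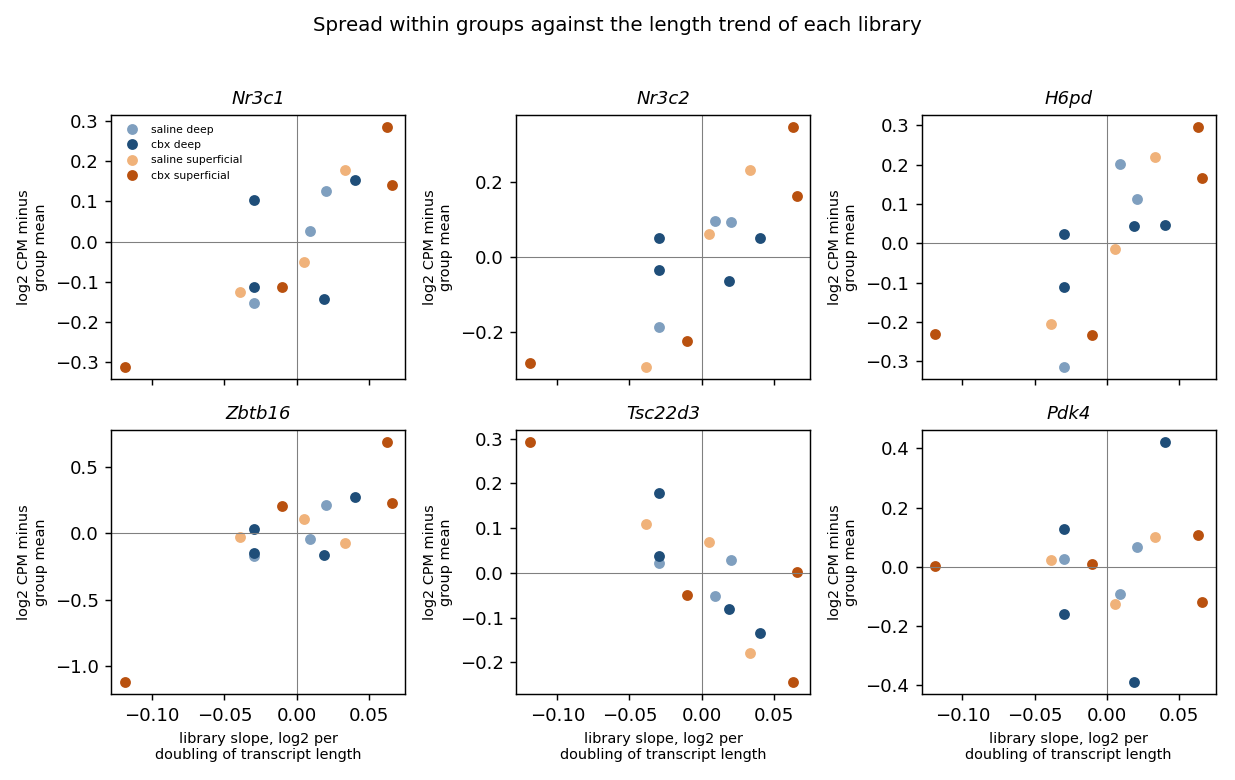
Deviation of 6 genes from their group mean in log2 CPM (vertical axes) against each library's slope with transcript length (horizontal axes, log2 units per doubling of length); each point is 1 library, coloured by group. Nr3c1, Nr3c2, H6pd and Zbtb16 rise along the slope, Tsc22d3 falls and Pdk4 shows neither, and the point at -0.119 is cbx superficial 1.

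Beyond the 9, 71 further genes of the pathway were listed and 69 had enough reads to test. After cbx 3 of 69 were higher and 0 lower in the superficial layer (4.35%, beside 4.33% of all genes), and with the length and GC trends removed 2 were higher and 1 lower. In the deep layer 1 of 69 was higher (1.45%, beside 1.83% of all genes). The median difference of the 69 was 0.05 in the superficial and -0.03 in the deep layer. The lists were drawn up with earlier results of these data known.

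The 3 genes higher in the superficial layer were response genes, from a list of 26 (11.5%, beside 4.33% of all genes). That list is given here because it holds all 3 calls, so nothing is read from its share. Angptl4, a secreted inhibitor of lipoprotein lipase that glucocorticoids and fasting induce, stood at 26.0, 22.4 and 24.8 CPM after saline and at 35.1, 36.4, 35.7 and 34.2 CPM after cbx. It rose by 0.54 (SE 0.10, edgeR adjusted p = 0.00752), without overlap, and the call was lost without saline superficial 2 (edgeR adjusted p = 0.0611). In the deep layer Angptl4 was at 0.40 (SE 0.10, edgeR adjusted p = 0.0543). That deep value did not pass. Angptl4 had values above saline in both layers, where Pdk4 had values below it, and a shared cause was not tested.

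Cdkn1c, which codes for the cell cycle inhibitor p57, rose by 0.70 (SE 0.16, edgeR adjusted p = 0.0226), from 27.2 to 32.7 CPM in saline superficial to 33.7 to 62.5 CPM in cbx superficial libraries. Its call was lost without saline superficial 1, 2 or 3 or cbx superficial 1 (edgeR adjusted p = 0.0853, 0.113, 0.0563 and 0.0522), and also without the pools saline 1 and cbx 4 (0.16) and with only the compared groups in the fit (0.0999). Sult1a1, a sulfotransferase, rose by 1.36 (SE 0.36, edgeR adjusted p = 0.048), but its libraries overlapped at 2.87 to 4.03 and 3.58 to 14.1 CPM. It passed in 3 of 15 alternatives, and its edgeR adjusted p was 0.143 with the replicate number as a block. In the same superficial libraries the meningeal markers summed to 897 to 1735 CPM after cbx and 680 to 1019 CPM after saline, with 4 of 10 higher. The 8 microglia and macrophage markers summed to 263 to 321 CPM against 196 to 238 CPM, with 3 of 8 higher and all 8 above saline. The 6 red blood cell markers summed to 238 to 389 CPM against 149 to 231 CPM, with 1 of 6 higher and all 6 above saline. Over all genes 4.33% passed in that comparison. No marker of these lists was without counts, and the part of those cells in the 3 rises was not tested. Per1, a clock gene with glucocorticoid response elements, did not pass, at -0.25 (SE 0.08, edgeR adjusted p = 0.0802) in the superficial and -0.26 (SE 0.08, edgeR adjusted p = 0.0984) in the deep layer.

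Among 16 chaperones and coregulators of the receptors, Ppid, the cyclophilin that competes with Fkbp5 for Hsp90, was the 1 gene that passed in the deep layer (6.25%, beside 1.83% of all genes). With 1 call, nothing is read from that share. It stood at 43.9, 45.7 and 51.1 CPM after saline and at 55.4, 60.5, 55.4 and 57.4 CPM after cbx, higher by 0.29 (SE 0.07, edgeR adjusted p = 0.043). The call was lost without any 1 of the 7 deep libraries (edgeR adjusted p up to 0.212) and with the replicate number as a block (edgeR adjusted p = 0.0993). In the superficial layer 0 of these 16 passed in the edgeR fit, beside 4.33% of all genes. Of the 16, 5 had an unadjusted p below 0.05, DESeq2 called 1 and voom 0. Ptges3, the p23 cochaperone, was at 0.30 (SE 0.10, edgeR adjusted p = 0.0825), Fkbp4 at 0.20 (SE 0.08, edgeR adjusted p = 0.143) and the corepressor Nrip1 at -0.31 (SE 0.10, edgeR adjusted p = 0.0738).

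None of the 14 tested genes of steroid supply and the stress axis passed after cbx in either layer in the edgeR fit, DESeq2 or voom, and 2 had an unadjusted p below 0.05 in the superficial and 0 in the deep layer. Serpina6, which carries corticosterone in blood, had 0 to 3 reads per library and Avp 0 to 30, and these 2 were not tested. None of 15 paralogs of the 9 genes passed after cbx by any of these 3 tools either, with 3 unadjusted in the superficial and 1 in the deep layer. Over all genes 4.33% passed the edgeR fit in the superficial and 1.83% in the deep layer, so 0 in lists this short is near that share. The other pyruvate dehydrogenase kinases lay near saline where Pdk4 did not, with deep values of 0.02 (SE 0.10) for Pdk1, -0.06 (SE 0.08) for Pdk2 and -0.14 (SE 0.11) for Pdk3 (edgeR adjusted p = 0.97, 0.789 and 0.595). Their superficial values were 0.13 (SE 0.10), 0.16 (SE 0.08) and -0.07 (SE 0.11), with edgeR adjusted p of 0.498, 0.276 and 0.755.

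Between layers, 16 of the 69 passed after saline (23.2%, beside 18.4% of all genes), 9 higher and 7 lower in the superficial layer, and 26 passed after cbx (37.7%, beside 32.2% of all genes), 17 higher and 9 lower. With the length and GC trends removed the splits were 7 higher and 11 lower after saline and 16 higher and 13 lower after cbx. Of the 26 response genes, 11 passed after saline (42.3%, beside the same 18.4%) and 14 after cbx (53.8%, beside 32.2%). This list too was drawn up with earlier results of these data known. Angptl4 was higher in the superficial layer by 0.67 (SE 0.11, edgeR adjusted p = 0.000183) after saline and by 0.80 (SE 0.09, edgeR adjusted p = 1.64e-06) after cbx. Dusp1, a phosphatase that ends MAP kinase signals, was higher after saline by 0.75 (SE 0.14, edgeR adjusted p = 0.000841), and Nfkbia, the inhibitor of NF-kappa-B, by 0.49 (SE 0.11, edgeR adjusted p = 0.00333). Mfsd2a, the lipid transporter of brain endothelium, was lower by 0.52 (edgeR log2 difference -0.52, SE 0.07, edgeR adjusted p = 2.03e-05). The response genes thus took both directions between layers, as Hsd11b1, Nr3c2 and Pdk4 did.

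In the steroid supply list 4 of 14 passed after saline (28.6%, beside 18.4% of all genes). Crhbp, which binds the stress peptide CRH, was lower in the superficial layer, at -1.23 (SE 0.35, edgeR adjusted p = 0.0164), and so was Cyp11a1, the side-chain cleavage enzyme, at -1.82 (SE 0.53, edgeR adjusted p = 0.0189). Akr1c14, a reductase of 3-keto steroids, was higher at 1.38 (SE 0.40, edgeR adjusted p = 0.02), and Abcb1a, the P-glycoprotein that pumps corticosteroids out at the blood-brain barrier, at 0.60 (SE 0.19, edgeR adjusted p = 0.0367). The calls of these 4 were not firm. That of Abcb1a was lost without any 1 of the 6 saline libraries, that of Akr1c14 without saline deep 2 or saline superficial 1, that of Crhbp without saline deep 1, saline deep 3 or saline superficial 1, and that of Cyp11a1 without saline deep 1 or 3 or saline superficial 2 or 3. The edgeR adjusted p then ran from 0.0521 for Crhbp to 0.146 for Abcb1a. Without the pools saline 1 and cbx 4 the calls of Crhbp, Abcb1a and Akr1c14 were lost as well (edgeR adjusted p = 0.269, 0.153 and 0.132). Of the chaperones, Hspa4 was lower at -0.32 (SE 0.08, edgeR adjusted p = 0.00818). Of the 15 paralogs 0 passed in the edgeR fit after saline (3 unadjusted, 1 by DESeq2, 1 by voom), beside 18.4% of all genes. After cbx 6 passed (40%, beside 32.2% of all genes), Tsc22d4 at 0.44 (SE 0.07, edgeR adjusted p = 6.94e-05) and Pdk2 at 0.27 (SE 0.07, edgeR adjusted p = 0.00779) among them.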

How the data were processed

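The authors deposited raw counts of reads for 55359 Ensembl IDs in each library. The submitters' processing notes name STAR 2.7.9d, Subread 2.0.1 with featureCounts, SAMtools 1.14 and FastQC 0.11.9, and the builds mm10 and GRCm39 without a role. No source used here gives the strand setting or annotation, so overlapping genes may share reads.

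Symbols were matched for 52083 IDs. The fit used edgeR 4.0.16 in R 4.3.3 (filterByExpr, TMM, robust quasi-likelihood, 4 group means, 10 residual degrees of freedom), with adjustment over 20330 genes. Exon lengths and overlaps came from GENCODE M21 (GRCm38). Likeness used log2 CPM with a prior count of 2 over genes of at least 1 CPM. Counts were also simulated with 200 changed genes in independently drawn libraries. There the fit called 83.3% of genes changed 2-fold and 64.2% of those changed 1.5-fold for cbx in the deep layer.

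The members and lists were chosen with earlier results of these data known. Besides the 9 genes, up to 4 genes per list with the smallest p in a comparison and the 3 genes most like a member could be named; Hsd11b2, Pdk1, Pdk2 and Pdk3, where outside that rule, and single markers were named after their values were seen. One gene read beside Pdk4 is not reported here.

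Replicate numbers come from the titles. With group means removed, the 7 pairs of layers with one treatment and number correlated at 0.182 to 0.394, and each of 14 libraries was closest to its own number, so the numbers pair the layers. The 6 pairs across treatments, at -0.276 to -0.0167, share only a number. No replicates agreed within sampling noise. Alternatives were other size factors, no low-count filter, DESeq2 1.42.0, limma-voom (limma 3.58.1), fewer groups, libraries or pools left out, a replicate block and, added after the data were seen, removal of length and GC trends.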

Additional observations from a re-analysis of the deposited data

Results flagged for a closer look

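Within the cbx deep group, H6pd stood at 10.7 CPM in replicate 4, apart from the other 3 libraries at 11.7 to 11.9 CPM. The gap of this lowest library to its nearest neighbour was above Dixon's 95% critical value for 4 samples. Of 18 checks, on 9 genes in the 2 groups of 4, this was the 1 above that value, and chance gives about 1 in 20.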

How the results depend on the processing

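Of the values of the 9 genes between cbx and saline, 269 of 270 moved by less than the spread between replicates. Leaving out 1 library of a group of 3 or 4 can hardly shift its mean by more than that spread. The count was therefore largely fixed in advance and does not measure how firm the values are. Of the 270, 12 changed sign, all of small values of Hsd11b1, Nr3c2, Sgk1 and Zbtb16. In the difference between layers 17 of 189 changed sign (H6pd, Nr3c2, Sgk1 and Zbtb16). Between layers 251 stayed, 5 gained and 10 lost a call, and 4 changed sign. The 4 belong to Tsc22d3, which passed in no layer comparison: after saline 0.054 without the pools saline 1 and cbx 4 and -0.10 to 0.041 without a library (saline superficial 3 and 1), and after cbx -0.030 with length and GC trends removed and -0.0084 to 0.17 without a library (cbx superficial 1 and 3). Genes called over the whole table moved more, so the background percentages hold for this fit alone. For cbx superficial (880), no filter gave 1459, DESeq2 1585, only the groups compared 142, the pools left out 91 and a library left out 140 to 907. For cbx deep (373) these were 566, 901, 611, 14 and 42 to 272, and 845 with trends removed (46% higher against 57.6%). Layers after saline (3739) gave 2133 without the pools and 2685 to 3406 without a library, and layers after cbx (6544) 5391 to 6276. The difference between layers (0) gave 256 without a filter, 60 with DESeq2 and 0 to 14 without a library. Of the other pathway genes, cbx superficial (3) gave 6 without a filter, 5 with DESeq2, 1 with only the groups, 1 without the pools and 0 to 5 without a library. For cbx deep (1) these were 2, 5, 1, 0 and 0 to 0, and 4 with trends removed. Layers after saline (16) gave 7 without the pools and 8 to 12 without a library, and layers after cbx (26) 21 to 27.

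With the replicate number or pool as a block, 480 genes were called for cbx superficial, 191 for cbx deep and 61 for the difference between layers, and 5 for the last with voom and a random block. Among the 9 genes the block changed the call of Nr3c1 between layers after cbx and no other. Of simulated 1.2-fold changes, 2.99% to 8.96% were called. The simulation changed 200 genes of at least 1 CPM, far fewer than passed between layers, and drew libraries independently. Its shares may therefore not carry over to these data, and depth was not varied.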

Other observations

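Pdk4 is also governed by fuel-sensing pathways, and some genes of these were read beside it, named here after their values were seen. Ppargc1a, a coactivator of mitochondrial genes, fell by 0.30 in the superficial layer after cbx (SE 0.07, edgeR adjusted p = 0.0229). Foxo1, a transcription factor that raises Pdk4 when insulin is low, did not pass after cbx, at -0.31 (SE 0.09, edgeR adjusted p = 0.0988) in the deep and -0.12 (SE 0.09, edgeR adjusted p = 0.488) in the superficial layer. Between layers Foxo1 was higher in the superficial layer by 1.08 (SE 0.10, edgeR adjusted p = 1.42e-07) after saline and 1.27 (SE 0.09, edgeR adjusted p = 1.1e-09) after cbx. Of the 12 genes read, 5 passed between layers after saline, 3 higher and 2 lower (41.7%, beside 18.4% of all genes). After cbx 7 passed, 4 higher and 3 lower (58.3%, beside 32.2% of all genes). Irs2 and Pdp1 were lower both times. The part of any of these genes in the Pdk4 differences was not tested.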
